A study of Mus musculus with 35 samples.

Results

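Recruited Kupffer cells (moKCs) of mice fed a Western diet (WD) for 24 weeks were compared with resident Kupffer cells (ResKCs) of mice kept on the standard diet (SD) for the same 24 weeks. The comparison holds 11 of the 35 bulk RNA-seq samples of the series, 5 of moKCs and 6 of SD ResKCs, and they were chosen by their labels alone. The mice were male C57BL/6J, started on their diets at 5 weeks of age; the WD was high in fat and cholesterol with sugars in the drinking water. Both populations were sorted from liver as CLEC4F+ macrophages (macs), ResKCs as TIM4+ and moKCs as TIM4-, so the 2 groups differ in diet and in the sort at once, and diet and origin cannot be told apart in this comparison. A TIM4- gate is a stand-in for origin: a resident cell without the protein would be counted as recruited, and a recruited cell that had gained it would be missed. In the study's bone-marrow chimeras with shielded livers, CLEC4F+ TIM4- cells were chimeric. TIM4+ ResKCs there were not, apart from a small share at 24 weeks. Values of 24-week WD ResKCs (6 samples, TIM4+, WD), of CLEC4F- macs from WD livers (6 samples) and of 12-week SD ResKCs (7 samples) are set beside the comparison where they bear on it. The labels do not say whether a sample is 1 mouse or a pool, and a p-value measures only the spread between these samples.

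Kupffer cells are the macs of the liver sinusoid. They are seeded before birth, renew themselves locally, clear bacteria, debris and aged red blood cells from portal blood, and recycle the iron. Their identity is upheld by signals from the neighbouring endothelial, stellate and parenchymal cells (Notch ligands, BMP and TGF-beta family members, sterol ligands of LXR-alpha), and when resident cells are lost, blood monocytes can settle in the vacant niche and take up much of the same programme, with TIM4 among the last genes to appear. In fatty livers a further programme, that of lipid-associated macs with Trem2, Cd9, Gpnmb and Spp1, is known in recruited cells.

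The 11 samples held 12355268 to 15163845 counts each, so 3 counts, used as a floor, correspond to 0.198 to 0.243 CPM (counts scaled to a library total of 1000000). The comparison covered the 13421 genes over 1 CPM in at least 5 of 35 samples. Clec4f, Vsig4, Cd5l, Clec1b and Adgre1, transcripts typical of Kupffer cells, were high in all 11 samples (Clec4f at 7326 to 11618 CPM in moKCs and 12316 to 15743 CPM in SD ResKCs). CLEC4F- macs held Clec4f at 294 to 5488 CPM, Cd5l at 940 to 6604 CPM and Clec1b at 113 to 432 CPM. They held Adgre1 at 756 to 1981 CPM and Vsig4 at 9.63 to 50.7 CPM. Their highest samples of Cd5l and Clec1b reached the moKC ranges of 6548 to 9974 CPM and 370 to 591 CPM. Timd4, which encodes TIM4, was at 2.85 to 30.3 CPM in moKCs and 885 to 1127 CPM in SD ResKCs, as the sort sets it. The sample headers follow 2 naming schemes whose meaning is not stated; all 6 SD ResKC samples carry the first, moKC replicates 1 and 2 the first and moKC replicates 3 to 5 the second. moKC replicate 1 stood apart from the other 4 moKC samples in several of the genes described here.

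moKCs and SD ResKCs differed in a minority of genes. Of 13421 genes, 756 (5.63%) were differentially expressed (DEGs, a log2 fold change beyond 1 either way with an adjusted p under 0.05; quasi-likelihood test of edgeR, p-values adjusted by Benjamini-Hochberg over all 13421 genes), 521 of them (3.88%) higher and 235 (1.75%) lower in moKCs. Whatever their size, 1879 genes (14.0%) had an adjusted p under 0.05, 946 higher (7.05%) and 933 lower (6.95%). A match was counted only where the 95% interval of the log2 fold change lay wholly between -1 and 1, that is, within a 2-fold change either way. By that measure 9518 genes (70.9%) matched the SD ResKC level. The 2 counts overlap: 881 of the matching genes also had an adjusted p under 0.05, a small called difference. For 2905 genes the samples settled neither a difference nor a match. The median absolute log2 fold change over all genes was 0.21. For scale, CLEC4F- macs against the same 6 SD ResKC samples gave 1988 DEGs (14.8%) and a median absolute log2 fold change of 0.33, WD against SD ResKCs gave 450 DEGs (3.35%), and moKCs against WD ResKCs gave 186 (1.39%); these comparisons share samples with each other. Without moKC replicate 1, 850 genes were DEGs, 319 of them lower. With moKC replicates 1 and 2 alone, the moKC samples that share the naming scheme of the SD ResKCs, 335 were.

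The distance of each whole transcriptome from health was measured against samples outside the comparison. For each sample it is the mean absolute difference in log2 CPM, over all 13421 genes, from the mean of the 7 SD ResKC samples of 12 weeks. That reference shares diet and sort with the 24-week SD ResKCs and differs in both from moKCs. A larger distance of the moKCs was therefore largely set by the choice of reference. The 5 moKC samples lay at 0.495, 0.518, 0.505, 0.491 and 0.468 and the 6 SD ResKC samples of 24 weeks at 0.321 to 0.437 (median 0.351), so that every moKC sample was farther away than every SD ResKC sample. The moKC mean of 0.496 ± 0.0186 (SD, n = 5) exceeded the SD ResKC mean of 0.359 ± 0.0432 (SD, n = 6) by 0.137 (two-sided exact permutation test over 462 splits, p = 0.0043). WD ResKCs of 24 weeks were at 0.435 ± 0.0318 (n = 6) and CLEC4F- macs at 0.679 ± 0.0538 (n = 6), given without a test. On this scale the moKC samples stood between WD ResKCs and CLEC4F- macs; the highest WD ResKC sample and the lowest moKC sample were both at 0.468.

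**Figure D1:**
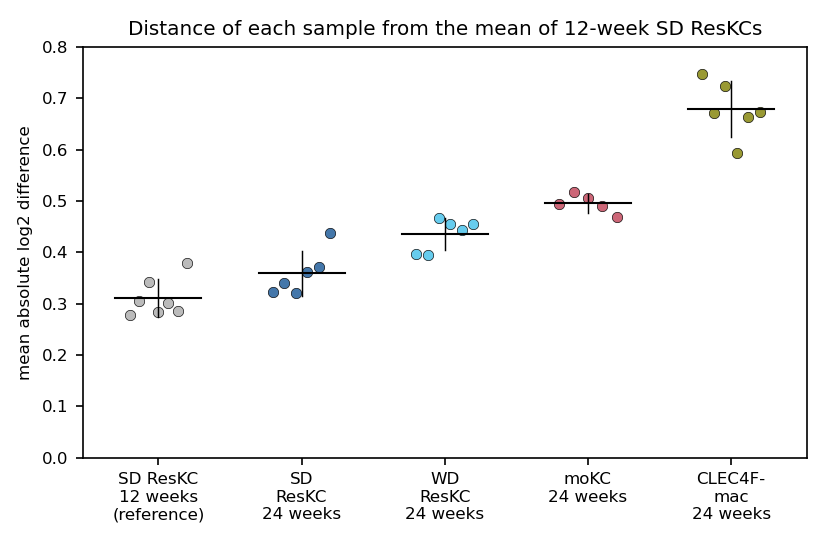
Distance of each sample from the mean of the 7 SD ResKC samples of 12 weeks (vertical axis, mean absolute difference in log2 CPM over 13421 genes), with group means and SDs as lines; the 12-week samples are part of their own reference. The 5 moKC samples lie at 0.468 to 0.518, above all 6 SD ResKC samples of 24 weeks (0.321 to 0.437) and below the 6 CLEC4F- mac samples (0.593 to 0.748).

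The healthy niche profile itself was taken from groups that have no part in the comparison: 786 genes were more than 2-fold higher in 12-week SD ResKCs than in CLEC4F- macs, and 1061 more than 2-fold lower, at an adjusted p under 0.05. These groups differ in diet, sort and weeks on the diet at once. In diet and TIM4 they differ the same way as SD ResKCs and moKCs do. The direction of both profiles in moKCs is thus partly set by that choice, and their counts are no independent evidence. Of the 786 healthy profile genes, 203 (25.8%, against 1.75% of all genes) were DEGs lower in moKCs than in 24-week SD ResKCs and 0 were DEGs higher (3.88% of all genes); at an adjusted p under 0.05 alone, edgeR called 374 lower and 0 higher. Of the 786, 278 (35.4%, against 70.9% of all genes) lay within a 2-fold change, some of them with a small called difference, and 223 were settled neither way. The median log2 fold change of the healthy profile in moKCs was -0.66, against 0.02 over all genes tested. Of the 1061 CLEC4F- mac profile genes, 332 (31.3%, against 3.88% of all genes) were DEGs higher in moKCs and 1 was lower (1.75%), and 141 (13.3%, against 70.9%) lay within a 2-fold change. Their median log2 fold change was 0.99. In WD ResKCs against the same SD ResKC samples the medians of the 2 profiles were -0.25 and 0.51, with 32 healthy profile genes as DEGs lower (0.976% of all genes) and 198 CLEC4F- mac profile genes as DEGs higher (2.38%). The median log2 fold change of CLEC4F- macs over the same SD ResKC samples was -1.61 for the first profile and 2.02 for the second, but CLEC4F- samples were used to choose both. Without moKC replicate 1 the count of healthy profile DEGs lower in moKCs was 269, and with moKC replicates 1 and 2 alone it was 96.

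**Figure D2:**
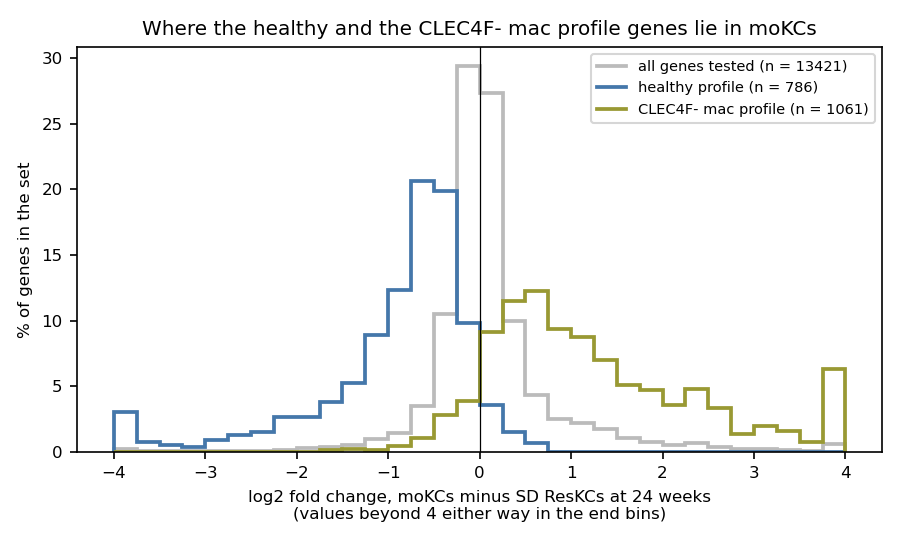
Log2 fold change of moKCs over SD ResKCs at 24 weeks (horizontal axis) for all 13421 genes, the 786 healthy profile genes and the 1061 CLEC4F- mac profile genes (vertical axis, % of each set per bin). All genes centre on 0.02, the healthy profile on -0.66 and the CLEC4F- mac profile on 0.99.

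The residency genes, transcripts that mark long-resident Kupffer cells, showed the widest gap. All 6 listed genes (Timd4, Cd163, Marco, C2, Xlr and C6) were lower in moKCs and none of their samples overlapped between the groups; the list was chosen knowing these data, so its count is no independent evidence. Marco, a scavenger receptor that binds bacteria and particles (chr1:120474538-120505024, GRCm38), was at 2.65, 14.6, 24.4, 51.4 and 18.6 CPM in the 5 moKC samples and 1179 to 4081 CPM (median 1886) in the 6 SD ResKC samples (log2 fold change -6.60, SE 0.76, edgeR adjusted p = 1.6e-07). Cd163, the receptor for haptoglobin-bound haemoglobin (chr6:124304656-124330527), was at 113, 64.3, 33.5, 94.5 and 38.3 CPM in the 5 moKC samples and 1462 to 2076 CPM (median 1604) in the 6 SD ResKC samples (log2 fold change -4.60, SE 0.31, edgeR adjusted p = 1.6e-12). C2, the complement protease precursor (chr17:34862604-34898265), was at 1.81, 2.92, 2.55, 1.35 and 1.61 CPM in the 5 moKC samples and 63.1 to 109 CPM (median 75.5) in the 6 SD ResKC samples (log2 fold change -5.24, SE 0.26, edgeR adjusted p = 3.6e-16). In all 3 genes the highest moKC sample lay more than 10-fold below the lowest SD ResKC sample. Xlr, a lymphocyte-regulated gene of the X chromosome, was at 1.55, 3.27, 1.42, 5.17 and 1.83 CPM in the 5 moKC samples and 17.4 to 36 CPM (median 24.7) in the 6 SD ResKC samples (log2 fold change -3.29, SE 0.32, edgeR adjusted p = 6.4e-09). C6, a component of the membrane attack complex, differed in kind: it was at 1268, 276, 392, 253 and 452 CPM in the 5 moKC samples and 1479.7 to 1870.4 CPM (median 1804) in the 6 SD ResKC samples (log2 fold change -1.72, SE 0.47, edgeR adjusted p = 0.011), so replicate 1 sat just below the SD ResKC range and the other 4 samples far beneath it. Without replicate 1 the fold change of C6 was -2.34. Timd4 was at 9.17, 16.9, 3.07, 30.3 and 2.85 CPM in the 5 moKC samples and 885 to 1127 CPM (median 1051) in the 6 SD ResKC samples, which the TIM4- gate sets.

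In WD ResKCs none of the 6 residency genes passed the test against SD ResKCs, where 4.84% of all genes were higher and 3.87% lower. With shares that low, 0 of 6 says little. The intervals of 3 lay within a 2-fold change (73.5% of all genes), and the median log2 fold change of the 6 was -0.48. Timd4 is 1 of them, and its level in WD ResKCs follows the TIM4+ gate. Marco was at 1242 ± 669 CPM (SD, n = 6) there, Cd163 at 1488 ± 437 CPM and C2 at 53.3 ± 15.3 CPM. The log2 fold change of moKCs over WD ResKCs was -5.81 (adjusted p = 2.8e-06) for Marco, -4.44 (adjusted p = 3.5e-12) for Cd163 and -4.69 (adjusted p = 6.6e-15) for C2, and that of WD over SD ResKCs -0.80 (adjusted p = 0.39), -0.16 (adjusted p = 0.74) and -0.55 (adjusted p = 0.062). Those 2 steps add up to the comparison of moKCs with SD ResKCs and share its samples. CLEC4F- macs held Cd163 at 9.01 to 28.9 CPM, below all 5 moKC samples, and the log2 fold change of moKCs over them was 2.3 (adjusted p = 6.0e-07).

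**Figure D3:**
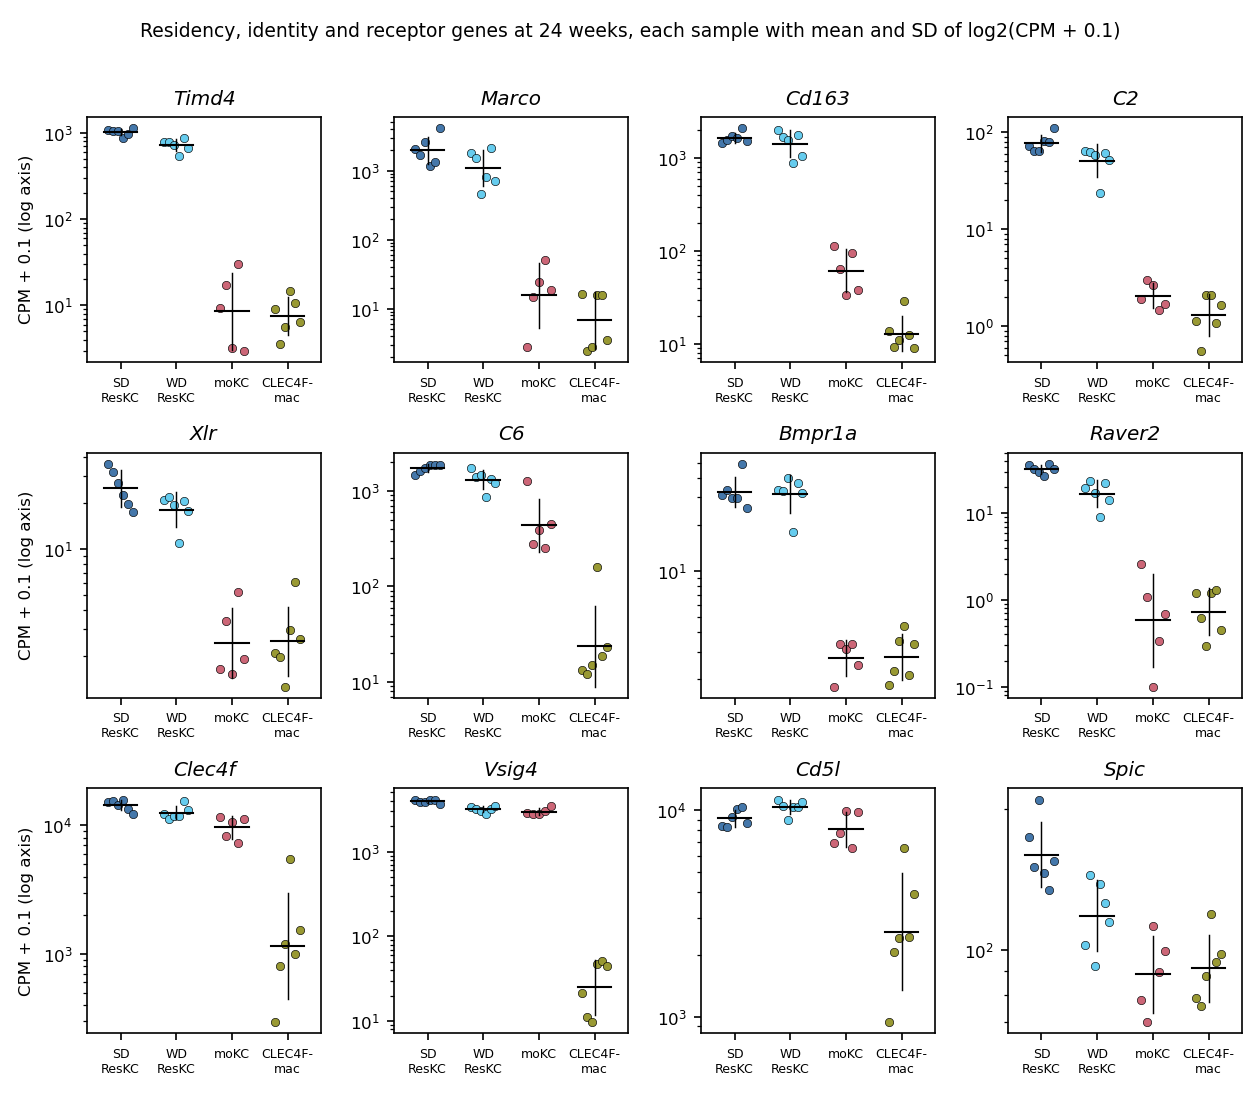
CPM plus 0.1 (log axis) of 12 genes in each sample of 4 groups at 24 weeks, with the mean and SD of log2(CPM + 0.1) as lines. Timd4, Marco, Cd163, C2, Xlr, Bmpr1a and Raver2 are low in all 5 moKC samples and in CLEC4F- macs, C6 is near the SD ResKC range in 1 moKC sample, and Clec4f, Vsig4 and Cd5l differ between moKCs and SD ResKCs by log2 fold changes of -0.55, -0.41 and -0.16.

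Kupffer cell identity genes were expressed at or moderately below the healthy level. Of 20 listed genes, all tested, 6 were lower in moKCs (6.95% of all genes were), 0 were higher, and 11 (55.0%, against 70.9% of all genes) lay within a 2-fold change. The median log2 fold change was -0.49 and the lowest -1.35, and in 12 of the 20 all moKC samples lay below all SD ResKC samples (4.25% of all genes). Cd5l, a secreted scavenger protein, was at 6946, 7733, 9974, 6548 and 9836 CPM in the 5 moKC samples and 8295 to 10398 CPM (median 9005) in the 6 SD ResKC samples, with overlapping samples and a 95% interval of -0.65 to 0.32 on the log2 scale. Vsig4, the complement receptor CRIg, was at 2852, 2747, 2749.8, 2984 and 3451 CPM in the 5 moKC samples and 3659.8 to 4117 CPM (median 3966) in the 6 SD ResKC samples (log2 fold change -0.41, SE 0.24, edgeR adjusted p = 0.28, interval -0.90 to 0.08). Clec4f, the lectin used for the sort, had a log2 fold change of -0.55 (interval -1.27 to 0.16). For both Vsig4 and Clec4f all 5 moKC samples lay below all 6 SD ResKC samples, and both passed an adjusted p of 0.05 when the 2 groups were fitted alone. In that fit 12 of the 20 identity genes were lower in moKCs. CLEC4F- macs held 30.7 CPM of Vsig4 on average, with a log2 fold change of -7.00 against SD ResKCs. The gap was smaller for Clec4f (-3.07) and Cd5l (-1.58).

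Of the 6 identity genes that passed, Apoc1 and Pcolce2 were DEGs. Apoc1, an apolipoprotein, was at 886, 552, 393, 315 and 504 CPM in the 5 moKC samples and 991 to 1435 CPM (median 1254) in the 6 SD ResKC samples (log2 fold change -1.22, SE 0.26, edgeR adjusted p = 0.0011). Pcolce2, an enhancer of procollagen processing, had a log2 fold change of -1.35 (edgeR adjusted p = 0.0071), Slc40a1, the iron exporter ferroportin, -0.84 (adjusted p = 0.0041) and Hpgd, which degrades prostaglandins, -0.61 (adjusted p = 0.0027). The moKC samples lay below all SD ResKC samples in each of these 4 genes. Cd207, the lectin langerin, was chosen after its values were seen: it was at 1169, 899, 599.6, 1588 and 709.9 CPM in the 5 moKC samples and 348 to 1246 CPM (median 634) in the 6 SD ResKC samples, while WD ResKCs held only 145 ± 59.7 CPM (SD, n = 6). Its interval against SD ResKCs was -0.10 to 1.19, and its log2 fold change against WD ResKCs 2.77 (adjusted p = 1.1e-06). With moKC replicates 1 and 2 alone, 1 of the 20 identity genes was called lower.

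Of 13 transcription factors of the lineage, 11 (84.6%) lay within a 2-fold change, against 70.9% of all genes, 3 were lower (6.95% of all genes were) and 0 higher. Id3, a BMP-responsive inhibitor of DNA binding, was at 1073, 568, 598, 913 and 712 CPM in the 5 moKC samples and 726 to 1296 CPM (median 1094) in the 6 SD ResKC samples, with an interval of -0.88 to -0.08. Spic, the factor of iron-recycling macs, was the lowest of the 13 by fold change, at 77.7, 69.8, 112, 89.3 and 99.2 CPM in the 5 moKC samples and 134 to 209.5 CPM (median 152) in the 6 SD ResKC samples (log2 fold change -0.85, SE 0.15, edgeR adjusted p = 0.00015), and the groups did not overlap. Nr1h3, which encodes LXR-alpha, had a log2 fold change of -0.40 (adjusted p = 0.0033) and Spi1, which encodes PU.1, of -0.25 (adjusted p = 0.0065); Spi1 no longer passed when samples were scaled by library size alone. Without moKC replicate 1, 5 of the 13 were called lower.

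Among 16 readouts and receptors of the niche signals, 12 (75%, near the 70.9% of all genes) lay within a 2-fold change, 2 were higher (7.05% of all genes were) and 2 lower (6.95%). Bmpr1a, a type I receptor for bone morphogenetic proteins, was at 1.68, 3.27, 3.0, 3.26 and 2.34 CPM in the 5 moKC samples and 25.5 to 49.3 CPM (median 30.3) in the 6 SD ResKC samples (log2 fold change -3.61, SE 0.22, edgeR adjusted p = 1.7e-13), whereas WD ResKCs held 32.3 ± 7.66 CPM and CLEC4F- macs 2.81 ± 1.01 CPM (SD, n = 6 each). The BMP-induced genes Id1, Id2, Id3, Smad6 and Smad7, named after their values were seen, did not pass the test, and the intervals of all but Id1 lay within a 2-fold change. Hey1, a Notch target, was at 23.3, 53, 47.9, 58.4 and 81 CPM in the 5 moKC samples and 9.79 to 24.1 CPM (median 18.7) in the 6 SD ResKC samples (log2 fold change 1.56, SE 0.30, edgeR adjusted p = 0.00039); 4 of 5 moKC samples lay above all SD ResKC samples and replicate 1 within their range. Tgfbr1 had a log2 fold change of 0.53 (adjusted p = 0.0068) and Tgfbr2 of -0.29 (adjusted p = 0.024), a call lost without moKC replicate 3 or 5 or SD ResKC replicate 4 or 6 (adjusted p up to 0.094).

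Genes of iron and heme handling were mostly lower. Of 14 listed genes 8 were lower in moKCs and 1 higher (background 6.95% and 7.05%), their median being -0.46 on the log2 scale, and scaling by library size alone gave the same counts. Hmox1, the heme oxygenase that opens the heme ring, was at 755, 886, 1421, 1166 and 962 CPM in the 5 moKC samples and 1949 to 3039.6 CPM (median 2461) in the 6 SD ResKC samples (log2 fold change -1.26, SE 0.19, edgeR adjusted p = 1.9e-05). Slc48a1, which carries heme out of the phagolysosome, was at 126, 181, 221, 226 and 191 CPM in the 5 moKC samples and 314 to 528 CPM (median 406) in the 6 SD ResKC samples (log2 fold change -1.17, SE 0.14, edgeR adjusted p = 3.1e-07). Fth1, the ferritin heavy chain, was at 3023, 3599.5, 3116, 4952 and 3405 CPM in the 5 moKC samples and 5327 to 7352 CPM (median 6281) in the 6 SD ResKC samples (log2 fold change -0.81, SE 0.12, edgeR adjusted p = 1.0e-05). In none of the 3 did the groups overlap. The log2 fold change of Hmox1 in WD over SD ResKCs was -0.10 (adjusted p = 0.78), with an interval of -0.46 to 0.26, and that of moKCs over WD ResKCs -1.16 (adjusted p = 0.00027). The 1 gene that was higher, Tfrc, named after its values were seen, is the transferrin receptor that brings iron into cells and had a log2 fold change of 0.99 (adjusted p = 0.021). Erythroid transcripts, a sign of ingested red blood cells or of their RNA in the sort, summed to 9.40 to 72.8 CPM in moKCs and 35.1 to 115 CPM in SD ResKCs and 0 of the 5 passed the test; their part in the result was not tested.

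Complement genes were mostly lower too. Of 15 listed genes 10 were lower (6.95% of all genes were) and 0 higher, 10 (66.7%, near the 70.9% of all genes) lay within a 2-fold change, and the median log2 fold change was -0.43. Cd55, the membrane inhibitor of the convertases, was at 54.8, 37.6, 11, 17.9 and 19.1 CPM in the 5 moKC samples and 81.6 to 489.6 CPM (median 152) in the 6 SD ResKC samples (log2 fold change -2.83, SE 0.55, edgeR adjusted p = 0.00047), and its log2 fold change in WD over SD ResKCs was -1.97 (adjusted p = 0.011). Cr1l, the rodent regulator Crry, had a log2 fold change of -0.35 (adjusted p = 8.8e-05) with no overlap between samples. With moKC replicates 1 and 2 alone, 3 of the 15 were called.

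Of 14 scavenger receptors, 6 were lower (6.95% of all genes were), 2 were higher (7.05%) and 8 (57.1%, against 70.9%) lay within a 2-fold change. Beside Marco and Cd163, Colec12, a collectin for microbes and oxidised lipoprotein, was at 13.8, 11, 2.4, 8.43 and 7.46 CPM in the 5 moKC samples and 80.4 to 128 CPM (median 97.4) in the 6 SD ResKC samples (log2 fold change -3.57, SE 0.34, edgeR adjusted p = 6.4e-09), while WD ResKCs held 183 ± 80.8 CPM (SD, n = 6), a log2 step from SD of 0.84 (adjusted p = 0.054). Cd36, the fatty acid and oxidised lipoprotein receptor, went the other way, at 586, 1034, 709, 789.8 and 928 CPM in the 5 moKC samples and 156 to 402 CPM (median 284) in the 6 SD ResKC samples (log2 fold change 1.47, SE 0.18, edgeR adjusted p = 5.7e-07), and WD ResKCs held 665 ± 129 CPM (SD, n = 6). Of 11 tested receptors and bridging proteins for apoptotic cells (13 listed), 9 (81.8%, against 70.9% of all genes) lay within a 2-fold change and 2 were lower (6.95% of all genes were), Timd4 and Axl. Axl had a log2 fold change of -0.29 (adjusted p = 0.035) and its call was lost without moKC replicate 1, 3, 4 or 5 or SD ResKC replicate 4 or 5 (adjusted p up to 0.13).

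The largest rises were ranked among the 231 DEGs whose samples did not overlap between the groups and whose mean reached 10 CPM in the higher one. Gpnmb had the largest, and Gm21188, a predicted gene described further on, Mmp13 and Mmp12 came next. Gpnmb, a lysosomal and surface glycoprotein (chr6:49036546-49070929), was at 33, 484, 181, 346 and 309 CPM in the 5 moKC samples and 0.491 to 3.75 CPM (median 2.1) in the 6 SD ResKC samples (log2 fold change 6.97, SE 0.86, edgeR adjusted p = 5.7e-07). Mmp12, the macrophage elastase (chr9:7344381-7369499), was at 164, 1222, 336, 1137 and 831 CPM in the 5 moKC samples and 4.76 to 15.8 CPM (median 11.8) in the 6 SD ResKC samples (log2 fold change 6.06, SE 0.75, edgeR adjusted p = 6.1e-07). Mmp13, collagenase 3 (chr9:7272514-7283331), was at 31.4, 252, 105, 188 and 132 CPM in the 5 moKC samples and 0.216 to 4.03 CPM (median 1.96) in the 6 SD ResKC samples (log2 fold change 6.17, SE 0.66, edgeR adjusted p = 3.8e-08). The groups did not overlap in these 3 genes, and replicate 1 was the lowest moKC sample in each. With the 12-week SD ResKCs joined to those of 24 weeks the log2 fold changes were 5.56, 4.64 and 4.65.

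The promoter windows of these 3 genes are shown because they share a match to the 7-letter sequence TGACTCA, the consensus of AP-1 factors. Sequences are from RefSeq (GRCm38.p6), 250 bases before to 50 bases after an annotated start, on the strand of the gene, with the match on either strand in capitals. The windows are chr6:49036268-49036567, plus strand, for Gpnmb, chr9:7347124-7347423, plus strand, for Mmp12 and chr9:7272264-7272563, plus strand, for Mmp13.
Gpnmb: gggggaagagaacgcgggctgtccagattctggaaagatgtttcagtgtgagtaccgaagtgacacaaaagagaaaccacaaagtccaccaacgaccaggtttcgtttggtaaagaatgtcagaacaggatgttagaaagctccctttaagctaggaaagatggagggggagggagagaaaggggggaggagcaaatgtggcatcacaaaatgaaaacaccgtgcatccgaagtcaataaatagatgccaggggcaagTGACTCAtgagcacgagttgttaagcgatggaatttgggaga
Mmp12: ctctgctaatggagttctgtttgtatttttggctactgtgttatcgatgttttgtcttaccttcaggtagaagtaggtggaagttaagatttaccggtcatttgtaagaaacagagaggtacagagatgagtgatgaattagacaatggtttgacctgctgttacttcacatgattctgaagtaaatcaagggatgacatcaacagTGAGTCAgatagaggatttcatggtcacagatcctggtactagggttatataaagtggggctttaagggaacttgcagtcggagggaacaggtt
Mmp13: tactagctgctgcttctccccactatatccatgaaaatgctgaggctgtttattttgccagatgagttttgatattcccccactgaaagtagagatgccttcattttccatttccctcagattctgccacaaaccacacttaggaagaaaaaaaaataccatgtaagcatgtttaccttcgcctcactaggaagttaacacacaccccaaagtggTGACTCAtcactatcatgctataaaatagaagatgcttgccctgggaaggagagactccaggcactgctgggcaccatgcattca
The table of promoters matched 7 of the 10 genes with the largest rises and 8 of the 10 with the largest falls. TGACTCA occurred for 3 of the 7 and 0 of the 8, against 5.20% of all 32851 promoter windows. For this and the other motifs the counts are of genes with a match in any of their windows, and the percentages are of single windows. A gene with more than 1 window, such as Mmp12 or Snrpn, thus has more chances of a match. Mmp12 has 2 annotated starts, and the window of the upstream one holds no match. In all, 15 motifs were searched on both strands, and this one is shown because its matches were seen. The E-box forms were TCACGTGA (0 of 7, 0 of 8, 0.974% of all), TCACATGA (1 of 7, 0 of 8, 0.986% of all), TCANNTGA, which takes in both (1 of 7, 0 of 8, 8.39% of all), CACGTG (0 of 7, 0 of 8, 7.15% of all) and the longer CLEAR element of lysosomal genes, which holds it (0 of 7, 0 of 8, 0.326% of all). The ETS forms were GGAAGT (2 of 7, 1 of 8, 23.8% of all) and the longer GAGGAAGT (1 of 7, 0 of 8, 3.20% of all) and CCGGAAGT (0 of 7, 0 of 8, 3.89% of all). The MAF forms were TGCTGA (2 of 7, 2 of 8, 19.5% of all) and the longer MAF recognition element (0 of 7, 1 of 8, 1.41% of all). The DR4 element of LXR (0 of 7, 0 of 8, 0.0152% of all), the interferon-stimulated response element (1 of 7, 0 of 8, 3.44% of all) and the cell cycle forms TTTGAA (1 of 7, 2 of 8, 17.9% of all) and TTTCGCGC (0 of 7, 0 of 8, 0.323% of all) complete the list. A match describes the letters and is not a site of binding.

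Of 19 lipid-associated mac genes, all tested, 14 were higher (7.05% of all genes were) and 0 lower, and their median log2 fold change was 2.01. In 11 of the 19 all moKC samples lay above all SD ResKC samples (4.66% of all genes). Cd63, a lysosomal tetraspanin, was at 25.8, 198, 104, 185 and 161 CPM in the 5 moKC samples and 3.09 to 5.5 CPM (median 4.07) in the 6 SD ResKC samples (log2 fold change 4.98, SE 0.51, edgeR adjusted p = 2.2e-08). Itgax, which encodes CD11c, was at 22.4, 102, 43.3, 109 and 74.4 CPM in the 5 moKC samples and 2.45 to 8.15 CPM (median 6.56) in the 6 SD ResKC samples (log2 fold change 3.53, SE 0.36, edgeR adjusted p = 2.4e-08). Cd9, a surface tetraspanin, was at 39.7, 195, 100.4, 157 and 163 CPM in the 5 moKC samples and 10.3 to 26.5 CPM (median 18.2) in the 6 SD ResKC samples (log2 fold change 2.86, SE 0.33, edgeR adjusted p = 1.9e-07). The moKC samples lay above all SD ResKC samples in these 3 genes. Trem2, the lipid-sensing receptor, was at 53, 191, 114, 166 and 197 CPM in the 5 moKC samples and 18.1 to 61.8 CPM (median 27.5) in the 6 SD ResKC samples (log2 fold change 2.01, SE 0.35, edgeR adjusted p = 0.00012), and replicate 1 fell inside the SD ResKC range. Spp1, which encodes osteopontin, was at 1.74, 32.7, 28.2, 29.8 and 31.1 CPM in the 5 moKC samples and 0.0789 to 7.08 CPM (median 1.13) in the 6 SD ResKC samples (log2 fold change 3.65, SE 0.74, edgeR adjusted p = 0.00078); 4 moKC samples lay within 28.2 to 32.7 CPM and replicate 1 inside the SD ResKC range. Without SD ResKC replicate 3 its log2 fold change was 4.70, and its call was lost with limma-voom (adjusted p = 0.072). Replicate 1 was the lowest moKC sample in all 14 of the genes that passed.

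WD ResKCs were raised in these genes as well. Gpnmb averaged 191 ± 168 CPM (SD, n = 6) there, a log2 step from SD of 6.47 (adjusted p = 7.3e-06), and the further step to moKCs was 0.50 (adjusted p = 0.78) with an interval of -0.81 to 1.82. For Cd9 the 2 steps were 2.53 (adjusted p = 6.2e-06) and 0.33 (adjusted p = 0.67), and for Trem2 1.58 (adjusted p = 0.0032) and 0.43 (adjusted p = 0.59). Of the 19 genes, 16 were called higher in WD than in SD ResKCs (4.84% of all genes), and 0 were called in either direction in moKCs against WD ResKCs (0.991% higher, 2.00% lower), where the intervals of 9 lay within a 2-fold change (73.5% of all genes). All 6 CLEC4F- mac samples lay above every moKC sample in Cd9, Cd63, Itgax, Spp1, Gpnmb and Trem2, with Spp1 at 205 to 598 CPM (median 358), Gpnmb at 759.5 to 1651 CPM (median 1228) and Trem2 at 244 to 383 CPM (median 314).

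**Figure D4:**
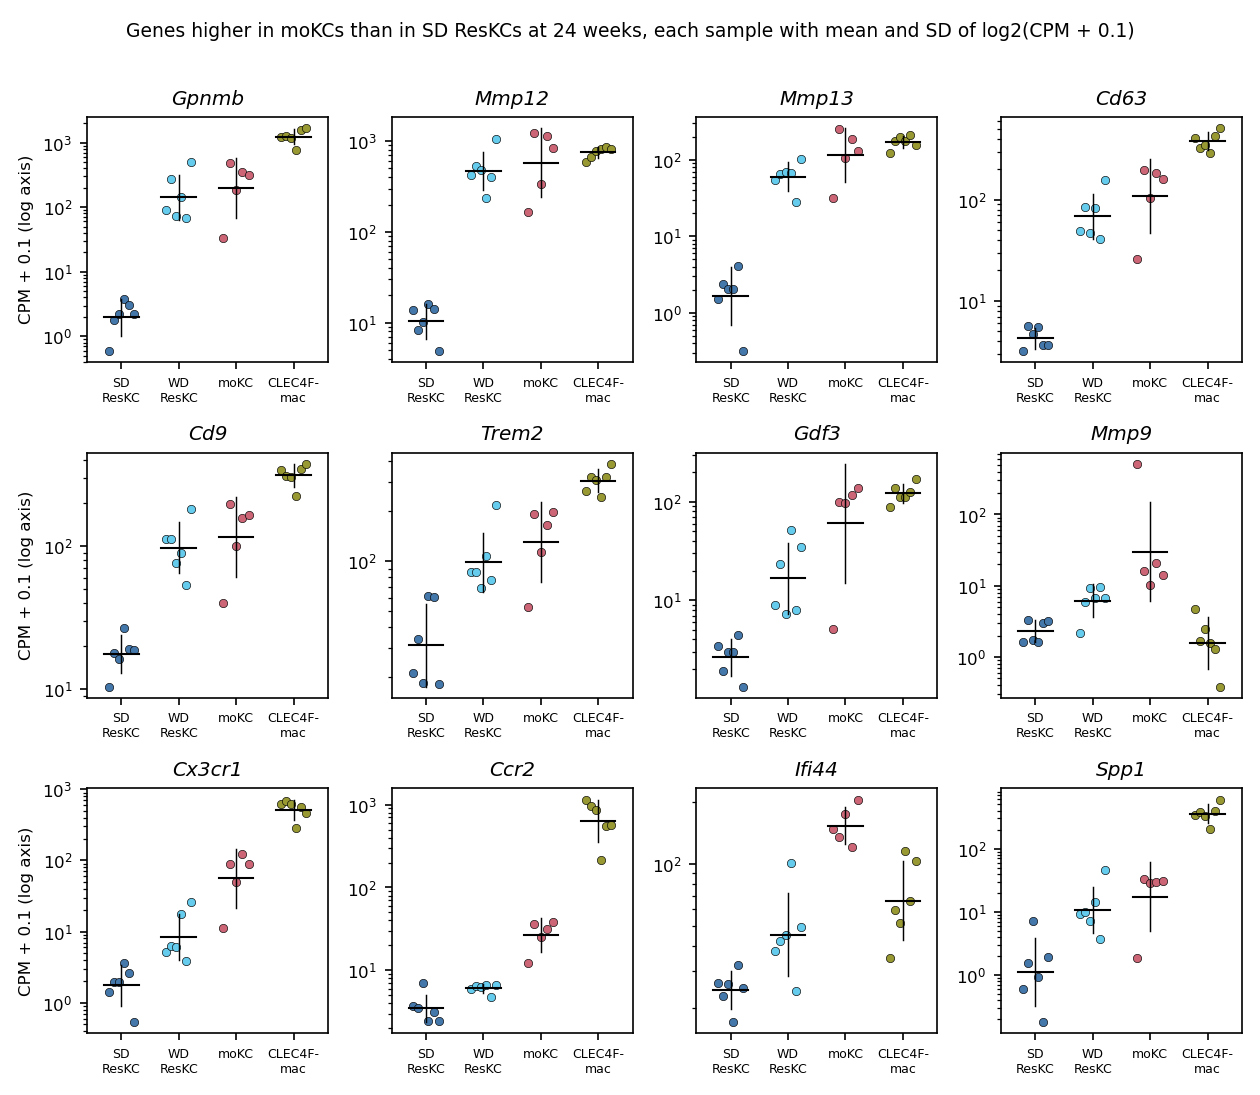
CPM plus 0.1 (log axis) of 12 genes in each sample of 4 groups at 24 weeks, with the mean and SD of log2(CPM + 0.1) as lines. Gpnmb, Mmp12, Mmp13, Cd63, Cd9 and Trem2 are raised in both WD ResKCs and moKCs, Cx3cr1, Ccr2 and Ifi44 have their highest Kupffer cell means in moKCs, and 1 moKC sample stands apart in Mmp9 (high) and in Gdf3 and Spp1 (low).

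Other genes among the 10 largest rises were Adam8, a sheddase (log2 fold change 5.51, adjusted p = 1.6e-05, lost with limma-voom at an adjusted p of 0.075), Atp6v0d2, a subunit of the vacuolar proton pump (5.26, adjusted p = 3.5e-06), Myo5a, an unconventional myosin (5.10, adjusted p = 1.1e-05), Gm21188, a predicted protein-coding gene (6.19, adjusted p = 1.0e-07), Gdf3, Mmp9 and Cx3cr1. The fold change of Gm21188 was 7.30 without SD ResKC replicate 5 and that of Adam8 6.11 without SD ResKC replicate 4. How reads shared with near copies of Gm21188 were counted is not given. Gdf3, a TGF-beta family ligand, was at 4.97, 99.8, 97, 116 and 138 CPM in the 5 moKC samples and 1.23 to 4.34 CPM (median 2.86) in the 6 SD ResKC samples (log2 fold change 5.06, SE 0.59, edgeR adjusted p = 1.9e-07), with replicate 1 far below the other moKC samples and just above the SD ResKC range. Mmp9, gelatinase B, had the reverse pattern, at 510.4, 15.8, 10.1, 20.7 and 14.2 CPM in the 5 moKC samples and 1.54 to 3.18 CPM (median 2.29) in the 6 SD ResKC samples (log2 fold change 5.61, SE 0.88, edgeR adjusted p = 3.0e-05). Without replicate 1 its log2 fold change was 2.70 (edgeR adjusted p = 0.0013). Mmp9 is also made by neutrophils, whose markers summed to 65.5 to 85.5 CPM in moKCs and 78.8 to 119 CPM in SD ResKCs, with Ly6g, Ngp and Camp at 0 in every one of these 11 samples and Mmp8, of the same list, higher in moKCs (2.50, adjusted p = 0.0036); their part in the result was not tested.

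Of 12 matrix proteases and inhibitors tested, 8 were higher (7.05% of all genes were) and 1 was lower (6.95%). Mmp2, gelatinase A, was at 5.87, 20.5, 18.5, 36.7 and 21.9 CPM in the 5 moKC samples and 3.79 to 5.84 CPM (median 4.93) in the 6 SD ResKC samples (log2 fold change 2.09, SE 0.30, edgeR adjusted p = 7.8e-06); its log2 fold change over WD ResKCs was 1.68 (adjusted p = 0.00059). Timp2, an inhibitor of these enzymes, was the 1 lower gene, at 301, 236, 246, 258 and 251 CPM in the 5 moKC samples and 430.4 to 642 CPM (median 528) in the 6 SD ResKC samples (log2 fold change -1.05, SE 0.14, edgeR adjusted p = 3.7e-06).

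Lipid droplet genes rose in part: 8 of 16 were higher (7.05% of all genes were) and 0 lower, and 7 (43.8%, against 70.9% of all genes) lay within a 2-fold change. Plin2, the droplet coat protein of macs, was at 349, 613, 622, 548 and 583 CPM in the 5 moKC samples and 265 to 404 CPM (median 328) in the 6 SD ResKC samples (log2 fold change 0.72, SE 0.13, edgeR adjusted p = 0.00013), with replicate 1 inside the SD ResKC range. Plin3, a further coat protein, had a log2 fold change of 0.39 (adjusted p = 0.00074). Cidec, a droplet fusion protein, was at 6.46, 4.91, 3.6, 3.5 and 3.0 CPM in the 5 moKC samples and 0 to 0.361 CPM (median 0) in the 6 SD ResKC samples (log2 fold change 5.68, SE 1.23, edgeR adjusted p = 0.0016), and its fold change was 7.46 without SD ResKC replicate 6. Cidea, a related protein, was at 1.81, 2.49, 4.95, 5.17 and 0 CPM in moKCs and had no counts in any SD ResKC library, which makes its moKC mean at least 13.5-fold higher when set against a floor of 3 counts per SD ResKC library. All 4 were called higher in WD than in SD ResKCs too. Between moKCs and WD ResKCs 0 of the 16 genes were called (0.991% of all genes were higher and 2.00% lower). There 9 of the 16 lay within a 2-fold change, against 73.5% of all genes. Of 13 LXR targets tested, 10 (76.9%, near the 70.9% of all genes) lay within a 2-fold change, 1 was higher (7.05% of all genes were) and 2 were lower (6.95%). Apoe, the apolipoprotein that takes up exported cholesterol, was at 26683, 39590, 28932, 41199 and 34838 CPM in the 5 moKC samples and 15337 to 22372 CPM (median 20864) in the 6 SD ResKC samples (log2 fold change 0.81, SE 0.14, edgeR adjusted p = 0.00014), opposite to its neighbour Apoc1. Smpdl3a, a phosphodiesterase, fell by 0.51 on the log2 scale (adjusted p = 0.0004). The LXR median of -0.08 turned to 0.04 when samples were scaled by library size alone.

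Monocyte genes were higher in part. Of 16 tested, 5 were higher (7.05% of all genes were) and 0 lower, and 2 (12.5%, against 70.9% of all genes) lay within a 2-fold change; the 18 listed summed to 495 to 665 CPM in moKCs and 281 to 384 CPM in SD ResKCs. Cx3cr1, the fractalkine receptor, was at 11.2, 87.6, 49.2, 124 and 88.8 CPM in the 5 moKC samples and 0.433 to 3.51 CPM (median 1.88) in the 6 SD ResKC samples (log2 fold change 5.24, SE 0.57, edgeR adjusted p = 6.1e-08). Ccr2, the receptor that brings monocytes to tissue, was at 12.1, 36.7, 25, 31.7 and 38.1 CPM in the 5 moKC samples and 2.36 to 6.85 CPM (median 3.24) in the 6 SD ResKC samples (log2 fold change 2.99, SE 0.34, edgeR adjusted p = 1.4e-07). In both genes all moKC samples lay above all SD ResKC samples, and CLEC4F- macs were far above the moKCs, at 281 to 687 CPM (median 586) and 217 to 1131 CPM (median 719). Over WD ResKCs the log2 fold change of moKCs was 2.74 (adjusted p = 0.00058) for Cx3cr1 and 2.25 (adjusted p = 4.2e-05) for Ccr2. Ms4a4c, a membrane protein of classical monocytes, rose by 1.01 on the log2 scale (adjusted p = 0.0049) and Hp, haptoglobin, by 1.64 (adjusted p = 0.011); Hp is also an abundant hepatocyte transcript and stood at 141 ± 61.3 CPM (SD, n = 6) in WD ResKCs. Chil3, a chitinase-like protein of fresh monocytes, was at 0.646, 0.0712, 0.0749, 0.477 and 0.0732 CPM in moKCs and had 0 counts in all 6 SD ResKC libraries, too near the floor for a fold to be given. Gpr183, an oxysterol receptor, was at 3.29, 2.49, 0.525, 2.47 and 1.02 CPM in the 5 moKC samples and 0.361 to 2.26 CPM (median 1.46) in the 6 SD ResKC samples, with an interval of -0.73 to 1.68. Of 39 HOX genes, which encode homeobox factors, 5 passed the filter on low counts, 2 of them higher (7.05% of all genes were). That filter asks for over 1 CPM in at least 5 samples, which a gene can meet through the 5 moKC samples alone. Hoxb4 was over 1 CPM in all 5 moKC samples, against a median of 0.504 CPM in SD ResKCs. The count of 2 of 5 is therefore no independent evidence. Hoxb5 was at 8.2, 3.7, 3.22, 7.87 and 4.17 CPM in the 5 moKC samples and 0.452 to 3.25 CPM (median 1.72) in the 6 SD ResKC samples (log2 fold change 1.60, SE 0.44, edgeR adjusted p = 0.012) and Hoxb4 at 2.71, 1.14, 1.5, 1.91 and 1.9 CPM in the 5 moKC samples and 0.316 to 1.01 CPM (median 0.504) in the 6 SD ResKC samples (log2 fold change 1.62, SE 0.40, edgeR adjusted p = 0.0052), while WD ResKCs held 1.53 ± 0.76 CPM and 0.483 ± 0.266 CPM (SD, n = 6). Over WD ResKCs the log2 fold change was 1.81 (adjusted p = 0.017) for Hoxb5 and 1.91 (adjusted p = 0.0053) for Hoxb4. With moKC replicates 1 and 2 alone neither was called against SD ResKCs.

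Of 10 genes of MHC class II antigen presentation, 1 was higher (7.05% of all genes were), 0 were lower and 7 (70.0%, near the 70.9% of all genes) lay within a 2-fold change. Cd74, the invariant chain, was at 11614, 11312, 9831, 15451 and 10546 CPM in the 5 moKC samples and 8052 to 12866 CPM (median 11257) in the 6 SD ResKC samples, with an interval of -0.28 to 0.55, and H2-Ab1 at 5495, 6395, 4636, 7392 and 5078 CPM in the 5 moKC samples and 2529 to 7467 CPM (median 4707) in the 6 SD ResKC samples, with an interval of -0.25 to 0.86. WD ResKCs were called lower than SD ResKCs in both and in 6 of the 10 genes (3.87% of all genes), at 5938 ± 1563 CPM and 2118 ± 686 CPM (SD, n = 6), and the log2 fold change of moKCs over them was 0.98 (adjusted p = 0.0037) for Cd74 and 1.45 (adjusted p = 0.0016) for H2-Ab1; 7 of the 10 genes were called higher in that comparison (0.991% of all genes). Ciita, the class II transactivator, was the gene above SD ResKCs, at 119, 159.7, 145, 156 and 135 CPM in the 5 moKC samples and 34.7 to 117 CPM (median 61.1) in the 6 SD ResKC samples (log2 fold change 1.14, SE 0.27, edgeR adjusted p = 0.004).

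Some interferon-stimulated genes were higher, most of them by less than 1 log2 unit. Of 21, 6 were higher (7.05% of all genes were) and 0 lower, while 18 (85.7%, against 70.9% of all genes) lay within a 2-fold change. Ifi44 had the largest of these rises, at 147, 135, 174, 120.1 and 205 CPM in the 5 moKC samples and 16.9 to 32.3 CPM (median 25.4) in the 6 SD ResKC samples (log2 fold change 2.65, SE 0.26, edgeR adjusted p = 9.6e-09), and its log2 fold change over WD ResKCs was 1.65 (adjusted p = 9.1e-05). Oasl2 rose by 0.63 on the log2 scale (adjusted p = 0.00029), Isg15 by 0.69 (adjusted p = 0.0013) and Ifit2 by 0.66 (adjusted p = 0.0037). The count was 10 without SD ResKC replicate 1 and 12 with scaling by library size alone. Of 15 cytokines and inflammatory enzymes 1 passed (14.0% of all genes did). It was Il1rn, the antagonist of the interleukin-1 receptor, at 187, 360.1, 240.3, 350.0 and 323 CPM in the 5 moKC samples and 48.9 to 83.2 CPM (median 71.9) in the 6 SD ResKC samples (log2 fold change 2.06, SE 0.18, edgeR adjusted p = 7.8e-10), with no overlap. Il1b was at 755, 188, 157, 630.0 and 286 CPM in the 5 moKC samples and 415 to 1172 CPM (median 783) in the 6 SD ResKC samples, with an interval of -2.10 to 0.14, and Il1a at 265, 103, 91, 225 and 143 CPM in the 5 moKC samples and 134 to 322 CPM (median 187) in the 6 SD ResKC samples, with an interval of -0.91 to 0.32. For 12 of the 15 the samples settled neither a difference nor a match. Immediate-early and heat-shock genes, which respond to tissue dissociation, were also widely spread: the 10 summed to 1437 to 8396 CPM in moKCs and 1863 to 10184 CPM in SD ResKCs, 0 passed, and all 10 fitted fold changes were below 0 (median -0.72). Fos was at 2853, 389, 432, 1565 and 708 CPM in the 5 moKC samples and 750.5 to 3525 CPM (median 2391) in the 6 SD ResKC samples and Junb at 1525, 338, 308, 920.3 and 525 CPM in the 5 moKC samples and 419 to 1404 CPM (median 1042) in the 6 SD ResKC samples, both highest among moKCs in replicate 1. When the fit was adjusted for the mean log2 CPM of those 10 dissociation-responsive genes, 4 of the 15 cytokine genes were called higher. The part of dissociation in these values was not tested.

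Part of the cell cycle genes were higher. Of 23 listed genes, all tested, 14 were higher (7.05% of all genes were) and 0 lower, 9 did not pass, 5 (21.7%, against 70.9% of all genes) lay within a 2-fold change, all 23 fitted fold changes were above 0, and the median was 1.03. Mki67, the proliferation marker, was at 44.1, 50, 70.7, 42.9 and 34.9 CPM in the 5 moKC samples and 17.3 to 29.8 CPM (median 21.9) in the 6 SD ResKC samples (log2 fold change 1.09, SE 0.26, edgeR adjusted p = 0.0037), with no overlap. Aurkb, the mitotic kinase, was at 17.9, 37.2, 47.6, 37.5 and 25.5 CPM in the 5 moKC samples and 13.4 to 19.6 CPM (median 15.8) in the 6 SD ResKC samples (log2 fold change 1.04, SE 0.22, edgeR adjusted p = 0.00099), with 4 of 5 moKC samples above all SD ResKC samples and replicate 1 inside their range. Tpx2 and Kif11, spindle proteins, had log2 fold changes of 1.25 (adjusted p = 0.0015) and 1.35 (adjusted p = 0.0037). Between moKCs and WD ResKCs 0 were called (0.991% of all genes were higher and 2.00% lower). There 20 of the 23 lay within a 2-fold change (73.5% of all genes), with Mki67 at a log2 fold change of 0.05 (adjusted p = 0.96). The count fell to 8 without moKC replicate 3 and to 0 with moKC replicates 1 and 2 alone.

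**Figure D5:**
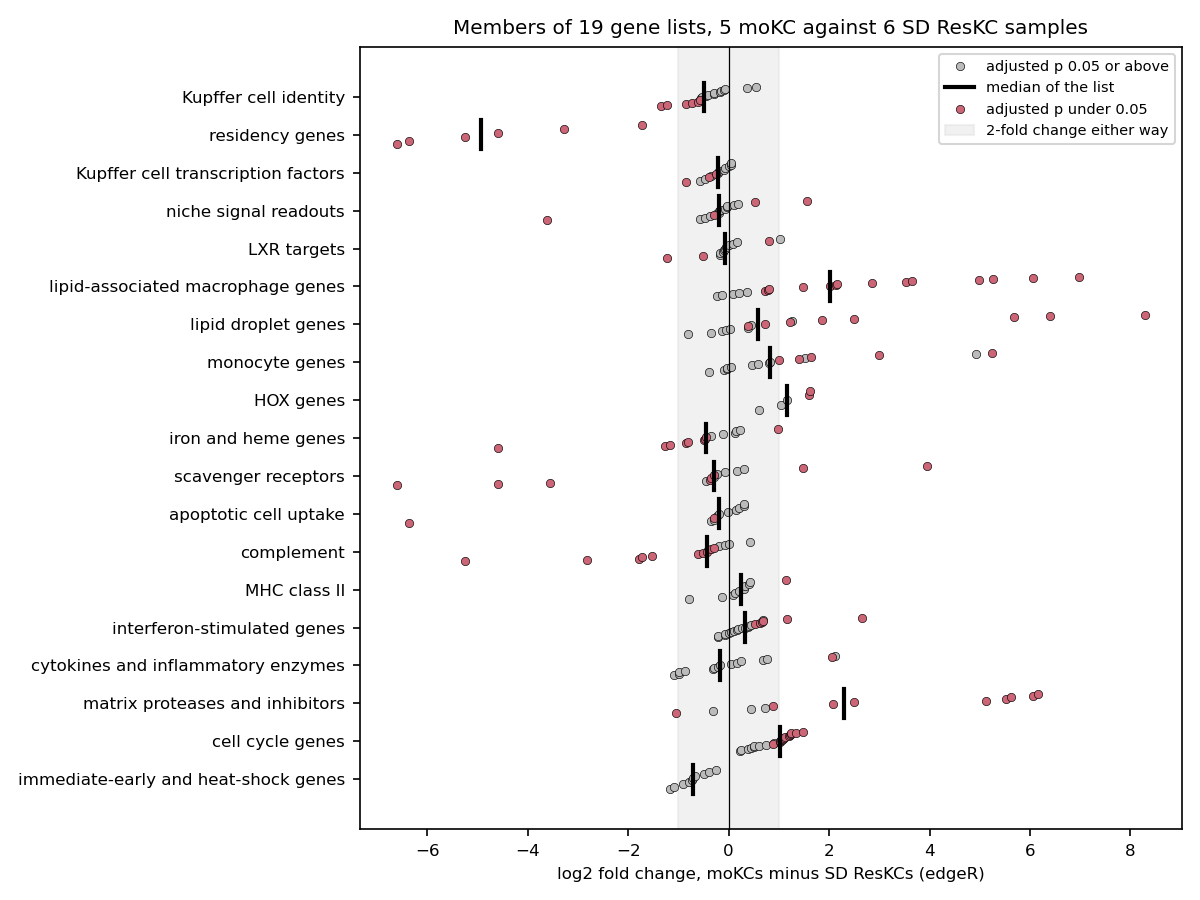
Log2 fold change of moKCs over SD ResKCs (horizontal axis) for the tested members of 19 gene lists, 1 point a gene, red where the edgeR adjusted p is under 0.05, with the list median as a black line and a 2-fold change either way shaded. Identity genes, transcription factors and MHC class II genes lie mostly within the shading, residency genes far below it and many lipid-associated mac genes and matrix proteases far above it.

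Among the 10 largest falls, ranked like the rises, were genes with no place in the lists. Raver2, an RNA-binding protein, was at 2.52, 0.997, 0, 0.239 and 0.585 CPM in the 5 moKC samples and 26.8 to 37.1 CPM (median 32.5) in the 6 SD ResKC samples (log2 fold change -5.16, SE 0.45, edgeR adjusted p = 7.7e-10). Snrpn, a paternally expressed splicing gene whose locus also encodes Snurf, was at 0.452, 0.712, 0.674, 0.557 and 0.366 CPM in the 5 moKC samples and 13 to 16.2 CPM (median 14.7) in the 6 SD ResKC samples (log2 fold change -4.72, SE 0.22, edgeR adjusted p = 7.3e-17). Efr3b, a plasma membrane scaffold, was at 0.839, 0.356, 0.225, 0 and 0.585 CPM in the 5 moKC samples and 7.65 to 17.2 CPM (median 8.63) in the 6 SD ResKC samples (log2 fold change -4.63, SE 0.52, edgeR adjusted p = 1.2e-07), and Ric3, a chaperone of acetylcholine receptors, at 1.87, 1.14, 0.225, 0.954 and 1.17 CPM in the 5 moKC samples and 11 to 15.7 CPM (median 12.7) in the 6 SD ResKC samples (log2 fold change -3.57, SE 0.36, edgeR adjusted p = 1.5e-08). In these 4 genes every moKC sample lay below every SD ResKC sample and WD ResKCs held higher levels (Raver2 17.7 ± 5.47 CPM, Snrpn 10.7 ± 2.64 CPM, Efr3b 22.1 ± 15.8 CPM, Ric3 8.72 ± 4.16 CPM; SD, n = 6). Without moKC replicate 1 the fold change of Raver2 was -6.11. Cxcl13, the B cell chemokine, was already called lower in WD ResKCs. It was at 204, 10.8, 6.67, 41 and 14.2 CPM in the 5 moKC samples and 402 to 1590.0 CPM (median 559.7) in the 6 SD ResKC samples (log2 fold change -3.65, SE 0.73, edgeR adjusted p = 0.00066), the step from SD to WD ResKCs was -2.56 (adjusted p = 0.012) and that from WD ResKCs to moKCs -1.09 (adjusted p = 0.44). Its fold change was -5.27 without moKC replicate 1, and its call was lost with moKC replicates 1 and 2 alone (adjusted p = 0.087).

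Markers of other liver cells were checked in the same samples, since in bulk RNA more cells of a type and more RNA per cell cannot be told apart. The share of all genes called was 7.05% higher and 6.95% lower in moKCs. Hepatocyte markers summed to 1494 to 3294 CPM in moKCs and 488 to 1664 CPM in SD ResKCs, and 2 of 10 were called higher, Cyp2e1 at 382, 328, 212, 167 and 153 CPM in the 5 moKC samples and 5.79 to 76.4 CPM (median 43.8) in the 6 SD ResKC samples (log2 fold change 2.54, SE 0.75, edgeR adjusted p = 0.02) and Apoa2 (log2 fold change 1.61, SE 0.54, edgeR adjusted p = 0.041), the latter lost without moKC replicate 1, 2, 3 or 4 or SD ResKC replicate 1, 2, 3, 4 or 5 (adjusted p up to 0.084). Stellate cell markers summed to 120 to 249.8 CPM against 108 to 243 CPM, and Col1a1 (2.85, adjusted p = 0.016) and Col3a1 (1.37, adjusted p = 0.019) were called. Sinusoidal endothelial markers summed to 626 to 1967 CPM against 929 to 2293 CPM, and Pecam1 was lower (-0.82, adjusted p = 0.0015), while Stab2 and Kdr did not pass. T and NK cell markers summed to 2.97 to 10.9 CPM against 0.211 to 2.86 CPM. Klrb1c (5.72, adjusted p = 0.00074) and Trbc2 (2.74, adjusted p = 0.026) were called among 4 tested, and 6 of the 10 listed did not pass the filter on low counts. The call of Trbc2 was lost without moKC replicate 2 or 3 or SD ResKC replicate 1, 5 or 6 (adjusted p up to 0.077). Leaving out SD ResKC replicate 3 raised the fold changes of these 2 to 6.95 and 3.55, and leaving out SD ResKC replicate 2 that of Col1a1 to 3.48. Dendritic cell markers summed to 14.2 to 35 CPM against 11.6 to 21.2 CPM, with Clec9a higher (1.5, adjusted p = 0.0086) and the other 5 tested not passing, and B cell markers to 52.2 to 278 CPM against 56.1 to 205 CPM, with 0 called. Of 4 neutrophil markers tested, Mmp8 was higher, as given above, and Csf3r lower (-0.37, adjusted p = 0.044), the latter lost without moKC replicate 1, 2, 3 or 5 or SD ResKC replicate 1, 3, 4 or 6 (adjusted p up to 0.13). With the mean log2 CPM of the 10 hepatocyte markers as a covariate 696 genes were DEGs. In that fit Hp was at 1.05 and Apoa2 at 0.76 on the log2 scale. The part of the other cell types was not tested.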

How the data were processed

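Libraries (TruSeq, NextSeq500) of 35 sorted mouse liver macrophage samples were sequenced by the authors. Per the labels, reads were processed with FastQC 0.11.9, HISAT2 2.2.0 (mm10), SAMtools 1.10 and featureCounts 2.0.0, and the deposited values are raw counts per gene symbol for each sample; the annotation, strand setting and treatment of multi-mapping reads are not given in the sources used here. Symbols were placed on GRCm38 with GENCODE.

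Groups came from the labels. Printed CPM are counts scaled to a sample total of 1000000 after TMM scaling of the totals, while floors in CPM use the totals without it. The 11 samples held 12355268 to 15163845 counts; floors cover counting error only. Differences were tested with edgeR 4.0.16 (R 4.3.3; quasi-likelihood, TMM, 35 samples, 6 group means, 13421 genes over 1 CPM in at least 5 samples, Benjamini-Hochberg adjustment over all of them), where the study used limma. Distances used log2 CPM with a prior count of 2 and an exact permutation test (SciPy 1.17.1). Steps were tested on simulated data. No pair of libraries agreed within sampling noise.

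Genes were named by 4 rules: those the study uses for the populations; the 10 largest rises and falls among DEGs without overlap between samples and with a mean of at least 10 CPM in the higher group; up to 4 called members of each list by p, or the 2 most abundant where fewer than 2 were called; and the 2 most abundant matching identity genes and factors. Of the genes these rules name, 2 are not reported here. The members and lists were chosen with earlier results of these data known. Alternatives were limma-voom (limma 3.58.1), DESeq2 1.42.0, other scalings, filters, limits, sample sets and covariates, and leaving out each sample.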

Additional observations from a re-analysis of the deposited data

Results flagged for a closer look

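In 12 of 198 sets of 5 or 6 samples tested among the named genes, 1 sample lay farther from the others than Dixon's 95% limit allows, on the log2 CPM scale, where chance gives about 1 in 20. The sets share samples and are not independent.

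moKC replicate 1 gave 5 of the 12. It lay at 0.92 for Spp1 against 4.82 to 5.04 in the other 4 moKC samples, at 2.36 for Gdf3 against 6.60 to 7.11, at 8.45 for Plin2 against 9.10 to 9.28 and at 6.19 for Cr1l against 6.30 to 6.32, and above them at 9.0 for Mmp9 against 3.36 to 4.38. It was also the lowest moKC sample in 9 of the 10 largest rises and the highest in 5 of the 10 largest falls. Without it, the log2 fold change of moKCs over SD ResKCs was 3.95 for Spp1, 5.37 for Gdf3, 0.85 for Plin2 and 2.70 for Mmp9. moKC replicate 5 had no counts for Cidea, at -2.75 against 0.97 to 2.41.

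Among SD ResKCs, replicate 6 stood apart in Cxcl13, at 10.6 against 8.65 to 9.39, in Cidec, at -0.97 against -2.75 to -2.14, and in Gpr183, at -0.97 against 0.62 to 1.27. Replicate 3 was the only SD ResKC sample with a count for Klrb1c, at -2.16 against -2.75. Replicate 2 was lowest for the globin transcripts Hbb-bs, at 4.13 against 5.23 to 5.65, and Hba-a1, at 2.95 against 4.34 to 4.78.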

How the results depend on the processing

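Of 79 named genes with an adjusted p under 0.05, 44 passed in all 13 alternatives and all 11 fits without 1 sample, 35 failed in at least 1, and 0 changed sign. Using only moKC replicates 1 and 2, which share the naming scheme of the SD ResKCs, took away 32 of these calls and left 335 DEGs (226 higher, 109 lower), 96 healthy profile genes lower and 185 CLEC4F- mac profile genes higher; with 2 moKC samples this fit has fewer samples by construction, and the naming scheme as a covariate gave 632 DEGs. Limits of 1.5 and an adjusted p of 0.01 left 313 DEGs (208 higher, 105 lower), 91 healthy profile genes lower and 160 CLEC4F- mac profile genes higher. Leaving out 1 sample gave 604 to 850 DEGs (392 to 534 higher, 201 to 319 lower), 9212 to 9419 genes within a 2-fold change, 180 to 269 healthy profile genes lower, 275 to 344 CLEC4F- mac profile genes higher and a distance difference of 0.129 to 0.152. The other fits gave 632 to 891 DEGs. Scaling by library size alone shifted the median log2 fold change of all genes from 0.02 to 0.13.

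Samples of moKCs and SD ResKCs that share a replicate number did not deviate together (5 pairs, correlations from -0.191 to 0.0198, 0 best with their own number). These groups come from mice on different diets, so no mouse could be in both, and the numbers were not taken as pairs. Numbers shared by moKCs, WD ResKCs and CLEC4F- macs were not checked. With a replicate block the fit gave 891 DEGs, and the distance differed by 0.152 over 5 pairs (exact p = 0.0625, the smallest that 5 pairs allow).

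Of gene list counts that moved by over 1.5 times, fitting the 2 groups alone raised identity genes lower in moKCs from 6 to 12 and hepatocyte markers higher from 2 to 4, as did the replicate block for the latter. Interferon-stimulated genes higher went from 6 to 12 with library size alone and with a hepatocyte covariate. With an immediate-early covariate lipid droplet genes higher went from 8 to 5, as without moKC replicate 2, and cytokines from 1 to 4. Without moKC replicate 1, niche readouts lower went from 2 to 4. With moKC replicates 1 and 2 alone, transcription factors lower went from 3 to 1, monocyte genes higher from 5 to 2 and interferon-stimulated genes higher from 6 to 2. The cause was not tested. DESeq2 gave no adjusted p for 4 named genes (Clec4f, C6, Mmp9 and Pcolce2). Depth limits genes near 0.2 CPM, such as Chil3.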

Other observations

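Further members of the lists, chosen after their values were seen, add to the picture. The fatty acid binding proteins Fabp4 and Fabp5 were at 22.1, 66.8, 23.8, 24.2 and 38.6 CPM in the 5 moKC samples and 3.84 to 16.2 CPM (median 6.75) in the 6 SD ResKC samples (log2 fold change 2.14, SE 0.39, edgeR adjusted p = 0.00022) and at 11.3, 38.2, 16.2, 35 and 24.3 CPM in the 5 moKC samples and 4.0 to 9.23 CPM (median 5.14) in the 6 SD ResKC samples (log2 fold change 2.16, SE 0.31, edgeR adjusted p = 6.2e-06), with no overlap between the groups. Lpl, lipoprotein lipase, had a log2 fold change of 0.81 (edgeR adjusted p = 0.00027) and Capg, an actin-capping protein, of 0.79 (adjusted p = 8.4e-05). All 4 were also called higher in WD than in SD ResKCs.

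The 3 chains of C1q, which opens the classical complement pathway, were each lower by less than 1 log2 unit, at -0.51 for C1qa, -0.30 for C1qb and -0.43 for C1qc (edgeR adjusted p = 0.0032, 0.04 and 0.01), and all moKC samples lay below all SD ResKC samples in each. Ferritin light chain, Ftl1, was at 2135, 2522, 2726, 2976 and 2774 CPM in the 5 moKC samples and 3213 to 4254 CPM (median 3403) in the 6 SD ResKC samples (log2 fold change -0.45, SE 0.08, edgeR adjusted p = 0.00021), and Slc11a1, the phagosomal metal transporter NRAMP1, at 919, 897, 877, 875 and 868 CPM in the 5 moKC samples and 1114 to 1436 CPM (median 1162) in the 6 SD ResKC samples (log2 fold change -0.48, SE 0.08, edgeR adjusted p = 2.7e-05), both without overlap. Il10, the anti-inflammatory cytokine, was at 16.2, 5.13, 7.34, 17.1 and 11.6 CPM in the 5 moKC samples and 10.2 to 41.5 CPM (median 21.1) in the 6 SD ResKC samples, with overlapping samples and an interval of -1.92 to -0.25 on the log2 scale.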
